A study of Mus musculus with 8 samples.

Results

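The Hox clusters of mouse alveolar macrophages (AMs) were examined for open chromatin. They hold the 39 genes that GENCODE M21 lists as protein-coding under the symbols Hoxa, Hoxb, Hoxc or Hoxd with a number. Each of the 4 clusters was taken from its first to its last Hox gene with 10 kb added on each side, on the mm10 build. The peaks of 8 libraries that overlapped these windows were merged where they shared a base, which gave 40 regions out of 82424 across chromosomes 1 to 19 and X. HoxA spans 105 kb of chromosome 6 (11 genes), HoxB chr11:96194316-96368256 (10 genes), HoxC chr15:102921103-103036852 (9 genes) and HoxD chr2:74668310-74765142 (9 genes).

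Accessibility was assayed by ATAC-seq, in which Tn5 transposase cuts and tags DNA that is not covered by nucleosomes. AMs, the resident macrophages of the airspaces, were washed from the lungs of adult mice by bronchoalveolar lavage and sorted. The paper's text names the ATAC-seq cells of both genotypes as mature AMs, while some of its supplementary captions name immature AMs for the KO. The 4 WT libraries (replicates 1_2, 1_3, 3 and 4) came from CD11cCre- Rxrabfl/fl mice and the 4 KO libraries (1_2, 1_3, 2 and 3) from CD11cCre+ Rxrabfl/fl mice. Both genotypes therefore carry loxP-flanked alleles of Rxra and Rxrb, the genes of the retinoid X receptors RXRα and RXRβ, and only the KO mice carry Cre. The Cre is driven from the CD11c (Itgax) promoter, which is also active in dendritic cells and other CD11c+ cells, so the deletion in these mice was not limited to AMs. The sources do not say if libraries 1_2 and 1_3 shared an animal, and if they did, the spread between libraries is partly technical. The study used male and female mice, and the library titles do not give the sex.

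Hox genes encode homeodomain transcription factors that give cells their position along the body axis, and their order on the chromosome follows the order of their domains in the embryo. In cells that do not use them the clusters are typically held silent by Polycomb complexes, and binding sites of CTCF, an insulator protein, divide active from silent stretches. Retinoic acid turns on several Hox genes in the embryo through response elements bound by heterodimers of a retinoic acid receptor and an RXR, the receptor family deleted here. In blood formation, members of the HoxA and HoxB clusters act in stem and progenitor cells and are switched off as cells mature.

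Sequences were read from the GRCm38.p6 assembly, the RefSeq copy of mm10. The first set shows the CTCF matches that lay under the Hox regions found in all 8 libraries, with the 12-base match in capitals and at most 1 mismatch to the consensus allowed. The match is given on its own strand.
Hoxa5 5′ end (chr6:52204650-52204679, minus strand): gcccagtctCCAGCGGGTGGCgctcgagtc
Hoxa7 gene 5′ end (chr6:52221800-52221829, minus strand): aagaaaattCCAGGAGATGGCagtgtggct
Hoxa10 5′ end (chr6:52240532-52240561, minus strand): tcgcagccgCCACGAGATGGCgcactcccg
Hoxd13 to Hoxd12 (chr2:74673169-74673198, minus strand): gccaaacgcCCAGGAGATGGCgagcgtgct

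The second set holds the E-boxes, CACGTG, found within 100 bp of the summit of a Hox region. Each of the 6 lay at a different Hox promoter, 5 are shown, and each sequence is printed on the strand of that gene with the E-box in capitals.
Hoxa4 (chr6:52191926-52191955, minus strand): gccggatcgcagCACGTGgggcgcgggggc
Hoxa7 (chr6:52217523-52217552, minus strand): catgtgggcggtCACGTGccgcggcgagct
Hoxa9 (chr6:52226242-52226271, minus strand): ctgccgggcggaCACGTGacgcgcgtggcc
Hoxd9 (chr2:74697919-74697948, plus strand): ggtaaatatgatCACGTGggccgcgcgacc
Hoxd1 (chr2:74762947-74762976, plus strand): gctggctggcgcCACGTGgctgccgccgcc

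The third set holds the retinoic acid response elements of the DR5 type, which are direct repeats of a 6-base half-site with 5 bases between them. The search allowed no mismatch and found 6 in the 4 windows, of which 5 are printed with the half-sites in capitals on their own strand.
Hoxa3 intron (chr6:52175533-52175549, minus strand): aatctcGGTTCAagaagAGTTCAcaagcc
Hoxb13 to Hoxb9 (chr11:96212029-96212045, minus strand): tgagaaAGGTCAgggaaGGGTCAacacct
Hoxb3 intron (chr11:96341236-96341252, plus strand): aatctcGGTTCAagaagAGTTCAcaagct
Beyond the 3′ end of Hoxb1 (chr11:96372776-96372792, plus strand): cttcctGGTTCAtagagAGTTCAgctctg
Hoxd3 intron (chr2:74741540-74741556, plus strand): tttttaGGTTCAagcagAGTTCAcaagga
The coordinates here are those of the 17-base element, and 6 bases are shown on each side of it. The elements in the Hoxa3 and Hoxb3 introns were identical over all 17 bases, and the one in the Hoxd3 intron shared 16 of 17 bases with either.

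The last set gives the 101 bases around the summit of 4 regions described further on, all on the plus strand. Capitals mark, in the region near Hoxd10, a CEBP match (TTGCNNAA, on the minus strand) followed by a PU.1 match (GAGGAAGT). The other 3 held no match to CTCF, PU.1, CEBP, the E-box or the GC box (GGGCGG) in these bases.
Haglr exon (chr2:74749358-74749458): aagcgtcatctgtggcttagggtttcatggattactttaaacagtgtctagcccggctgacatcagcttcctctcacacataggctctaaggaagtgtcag
Upstream of Hoxd10 (chr2:74690161-74690261): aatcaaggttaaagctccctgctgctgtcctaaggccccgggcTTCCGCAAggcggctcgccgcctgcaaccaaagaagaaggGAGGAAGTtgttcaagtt
Hoxa6 to Hoxa7 (chr6:52211702-52211802): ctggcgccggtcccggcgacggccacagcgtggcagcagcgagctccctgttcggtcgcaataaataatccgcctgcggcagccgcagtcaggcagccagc
Hoxb5 to Hoxb4 (chr11:96311653-96311753): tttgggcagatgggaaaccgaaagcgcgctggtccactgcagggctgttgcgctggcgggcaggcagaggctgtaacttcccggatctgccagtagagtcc

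The libraries held 60363 to 72484 peaks each. Their background, as the deposited fold and p-values give it, ran from 1.12 tags per 200 bp in KO 3 to 2.26 in WT 1_3, and the smallest summit of a list was 6 to 9 tags, so a site with fewer tags could not be listed. Of the targeted genes, Rxra held 1 region (chr2:27744546-27744950) with 38 to 46 tags in the WT libraries and no peak in the KO libraries, and Rxrb held none specific to a genotype. Promoter peaks in all 8 libraries were found for 11 of 13 AM markers (not for Chil3 and Krt79), 3 of 5 lung epithelial markers (Cdh1, Epcam and Scgb1a1), 1 of 6 fibroblast markers (Pdgfra), 1 of 5 endothelial markers (Pecam1), 2 of 4 neutrophil and 2 of 4 dendritic cell markers, and none of 4 T cell and 4 B cell markers. Cdh1 is also counted by the paper among the AM-core genes, so it does not mark epithelial cells alone here. Nkx2-1 and Sftpc of the epithelial list, Tbx5, Tcf21, Col3a1 and Col1a2 of the fibroblast list and Cdh5 and Tek of the endothelial list had no promoter peak in any library, while Col1a1 had one in 7 libraries, Cldn5 in 3 WT libraries and Kdr in 1. Of the T and B cell lists, Tcf7 had a promoter peak in 2 WT libraries and Pax5 in 1 WT library. Cldn5, Kdr, Tcf7 and Pax5 had none in KO. Of the neutrophil and dendritic cell lists, Cxcr2, S100a8, Flt3 and Zbtb46 had a promoter peak in all 8 libraries. Ly6g, Mpo, Xcr1 and Ccr7 had none in any library. Over all 21755 protein-coding genes, 53.7% had a promoter peak in all 8 libraries. The part of other cells in the Hox peaks was not tested.

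The 4 clusters differed in how open they were. HoxA held 15 of the 40 regions, HoxD 13, HoxC 8 and HoxB 4. Of these, 12 had a peak in all 8 libraries, 7 of them in HoxA and 5 in HoxD, and neither HoxB nor HoxC had one. A further 17 were found in 2 to 7 libraries and 11 in 1 library only. Single-library regions made up 27.5% of the Hox regions and 11.8% of all merged regions. WT 1_3, the library with the highest background, held 5 of the 11, and it held 38.8% of all single-library regions of the genome. WT 1_2 held 3, KO 1_2 held 2 and KO 1_3 held 1.

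**Figure D1:**
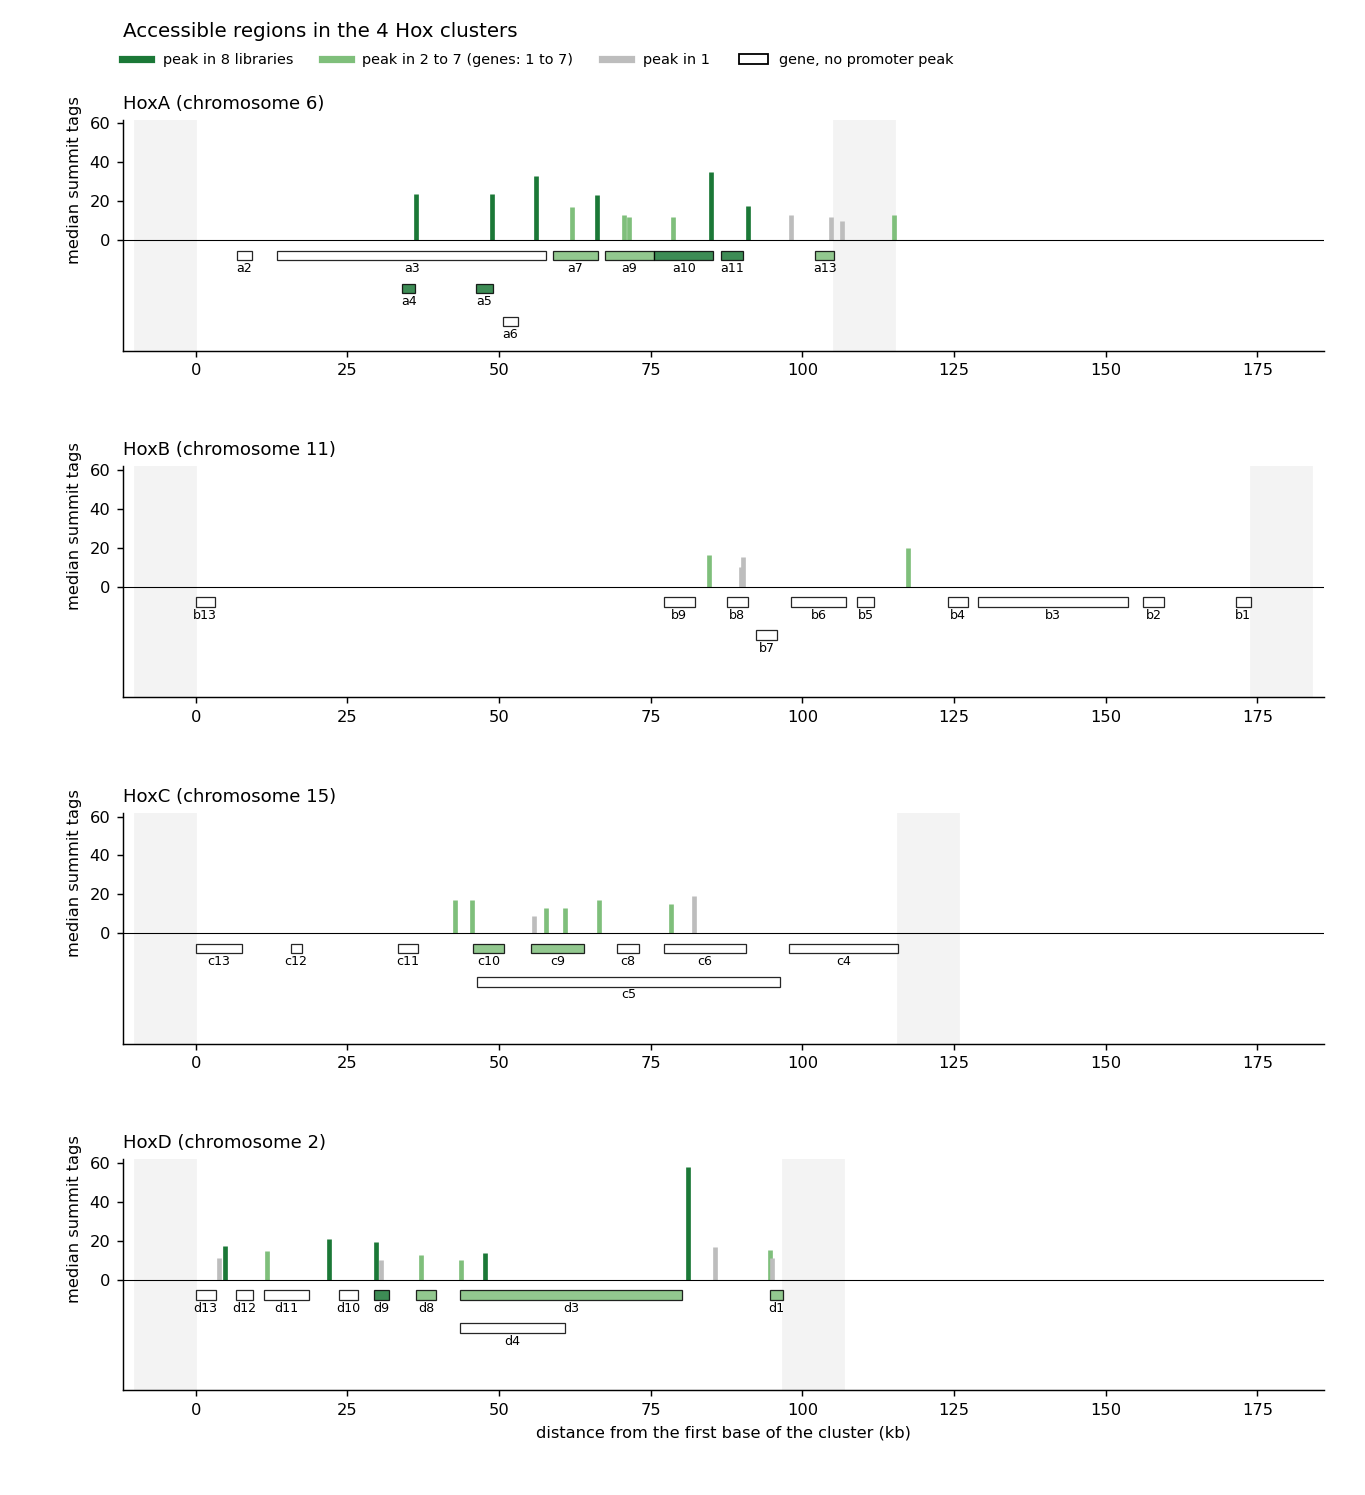
Regions and genes of the 4 Hox clusters, by distance in kb from the first base of each cluster. Vertical bars stand at region summits and their height is the median number of tags over the libraries with a peak. Boxes are genes, coloured by the number of libraries with a promoter peak, and grey bands are the 10 kb added on each side. The regions found in all 8 libraries lie in HoxA and HoxD, 1 of the 12 is not drawn, and all 10 HoxB genes are white.

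Per length, HoxA held 6.39 to 8.78 peaks per 100 kb in the 8 libraries, HoxD 4.28 to 9.42, HoxC 1.47 to 4.42 and HoxB 0 to 1.55. The genome as a whole held 2.29 to 2.75. HoxA lay above the genome value in every library and HoxB below it in every library. The HoxC range included the genome range. KO 3, the library of lowest background, had no peak in the HoxB window.

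**Figure D2:**
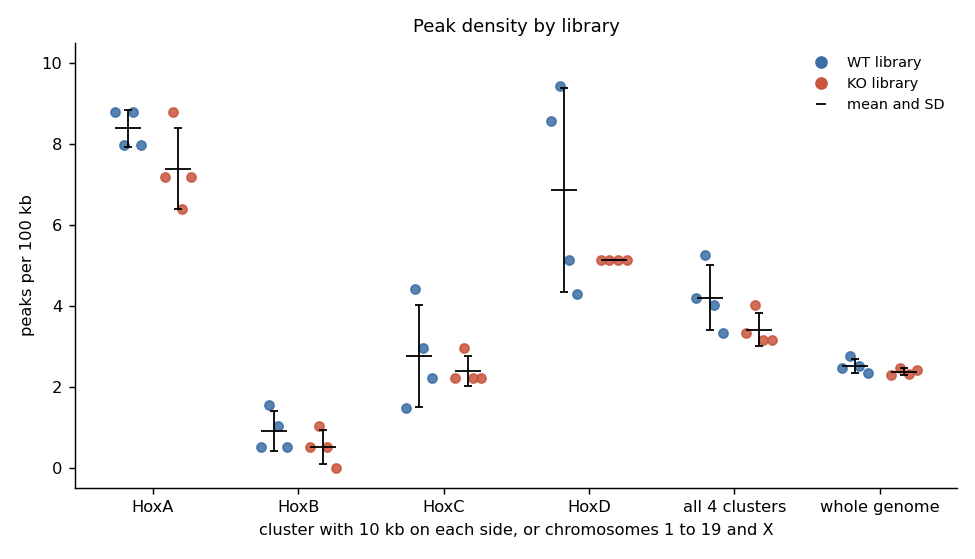
Peaks per 100 kb in each cluster window and over chromosomes 1 to 19 and X. Each point is 1 library (blue WT, red KO), with the mean and SD of 4 libraries in black. The HoxA points sit at 6.39 to 8.78 and the HoxB points at 0 to 1.55, on either side of the genome at 2.29 to 2.75.

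A promoter peak was defined as a summit within 1 kb of a transcription start site (TSS) of the gene. Of the 39 Hox genes, 6 had one in all 8 libraries, which is 15.4%, beside 53.7% of 21755 protein-coding genes. Among them were Hoxa4, Hoxa5, which is required for normal lung development, Hoxa10, which acts in the uterus and in myeloid progenitors, Hoxa11, a gene of the limb and urogenital tract, and Hoxd9. A further 8 genes had a promoter peak in 1 to 7 libraries: Hoxd8 (6 libraries), Hoxa9, a regulator of haematopoietic stem cells (5), Hoxa7 (4), Hoxc10, a gene of the lumbar spinal cord and hindlimb (7), Hoxd1 and Hoxd3 (2 each), and Hoxa13, a gene of the digits, and Hoxc9 (1 each).

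The other 25 Hox genes had no promoter peak in any library, which is 64.1%, beside 39.6% of all protein-coding genes. In HoxA these were Hoxa2, Hoxa3 and Hoxa6. In HoxB they were all 10 genes, among them Hoxb4, which expands blood stem cells when overexpressed, and Hoxb8, which is used to hold myeloid progenitors in an undifferentiated state in culture. In HoxC they were Hoxc4, Hoxc5, Hoxc6, Hoxc8, Hoxc11, Hoxc12 and Hoxc13, the last a gene of hair and nail, and in HoxD they were Hoxd4, Hoxd10, Hoxd11, Hoxd12 and Hoxd13, the last 3 genes of the forearm and digits.

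CpG-rich promoters are usually open in most cell types. Of the Hox genes, 24 had a CpG-rich promoter, defined by an observed over expected CpG ratio of at least 0.6 and a GC content of at least 50% in the 1 kb around the 5′ end. A promoter peak in all 8 libraries was found for 5 of these 24 (20.8%), beside 8143 of 9741 CpG-rich promoters of the genome (83.6%), and no promoter peak for 13 of 24 (54.2%), beside 9.91%. Hoxa2, Hoxa6, Hoxb9, Hoxc13 and Hoxd13 were among the 13. CpG content was measured at the 5′ end of the gene, which for some genes is not the TSS with the peak. With peaks also sought at that 5′ end alone, 6 of 24 CpG-rich Hox genes (25.0%) had one in all 8 libraries and 12 (50.0%) in none, beside 83.0% and 9.90% of CpG-rich genes. Over all 39 Hox genes the counts were then 7 and 23, as Hoxa7 gained a peak in all 8 libraries, Hoxc5 in 7, and Hoxd4 and Hoxd11 in 2, while Hoxa9 lost its peak. The Hoxc5 peaks were those already counted at the Hoxc10 promoter, and the Hoxd4 peaks those already counted for Hoxd3. The 21 other developmental homeobox genes taken for comparison had a promoter peak in all 8 libraries at Dlx4 only, in some libraries at 5 (Dlx6, En1, Gbx1, Gbx2 and Gsx1) and in none at 15.

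**Figure D3:**
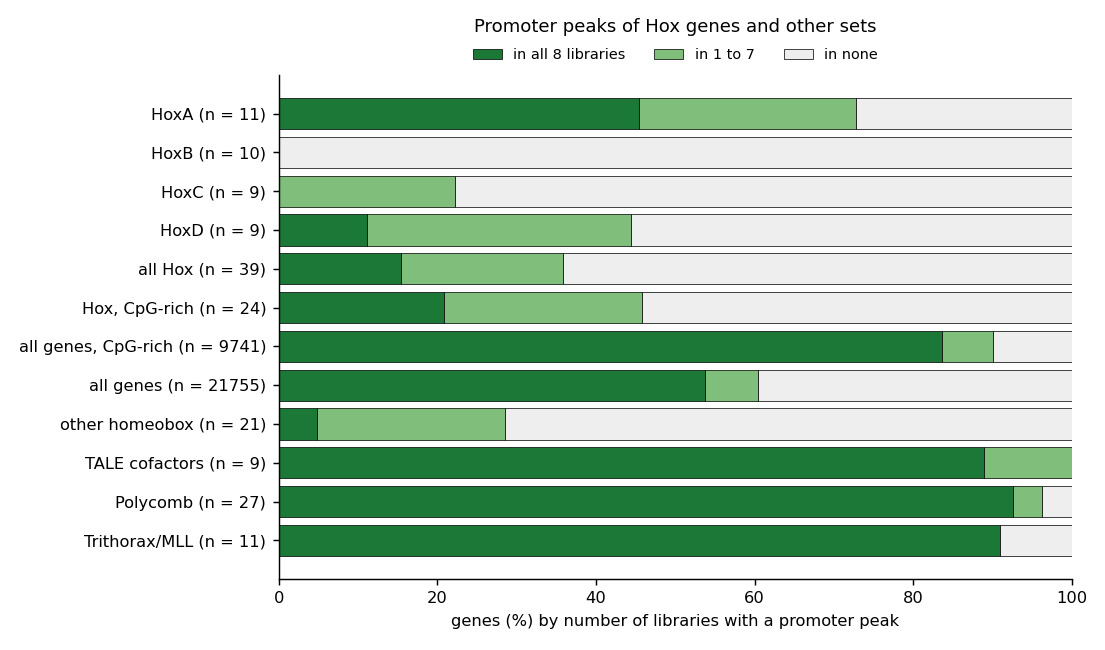
Share of genes (%) with a promoter peak in all 8 libraries (dark green), in 1 to 7 (light green) or in none (grey), for each Hox cluster, all genes and other gene lists. The dark bar covers 20.8% of CpG-rich Hox promoters and 83.6% of all CpG-rich promoters.

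The Hox regions that were open in all libraries were weak and narrow. The 6 at promoters had a median of 21.5 tags at the summit (range of region medians 16.5 to 35.0) and a median width of 410 bp, while the 7793 regions found in all 8 libraries at CpG-rich promoters had 134 tags and 757 bp. As a mean percentile of strength within each list they lay between 20.1 and 51.2, beside a median of 82.0 for the CpG-rich set. The 6 outside promoters, which include the one at the Hoxa7 gene 5′ end, had a median of 22.0 tags and 412 bp, beside 55.5 tags and 466 bp for 35245 such regions of the genome. In bulk libraries a site open in few cells and a site weakly open in many cannot be told apart.

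The strongest Hox region lay in an exon of Haglr, a long noncoding RNA that starts beside Hoxd1 and runs toward Hoxd3. It spans chr2:74749209-74749625 and its summit lay 9.79 kb from the nearest Hoxd3 TSS and 1098 bp from the nearest start annotated for Haglr. Its summit held 105, 86, 57 and 48 tags in the WT libraries (always given in the order 1_2, 1_3, 3, 4) and 68, 59, 49 and 52 tags in the KO libraries (1_2, 1_3, 2, 3). It was highest in WT 1_2 and WT 1_3, and WT 4 lay below all 4 KO libraries. Its mean percentile of strength was 66.6, and it was the only Hox region above the genome median of 62 for regions in all 8 libraries. By summit tags it lay below that median, with 58 tags as its median over the libraries beside 66.5. Haglr itself had a promoter peak in 2 WT libraries only, at its 5′ end next to Hoxd1.

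In HoxA the strongest region lay in the untranslated part of Hoxa10 (chr6:52240399-52240758), 296 bp inside the gene, and held 45, 40, 32 and 30 tags in WT and 37, 39, 33 and 25 in KO. The next lay between Hoxa6 and Hoxa7 (chr6:52211563-52211920), in introns of Hoxa3 and of the antisense gene Hoxaas3, with 31, 34, 33 and 27 tags in WT and 33, 37, 35 and 33 in KO. The region at Hoxa4 (chr6:52191782-52192180), whose summit lay 209 bp upstream of the TSS, held 34, 26, 23 and 21 tags in WT and 23, 25, 24 and 22 in KO. Raw tags of WT and KO overlapped at all 3.

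At Hoxa5 (chr6:52204191-52204708) the summit held 26, 30, 19 and 24 tags in WT and 25, 19, 18 and 23 in KO. The region at the annotated 5′ end of the Hoxa7 gene (chr6:52221488-52221975), 3.11 kb upstream of the nearest TSS of the set used here, had 23, 34, 21 and 15 tags in WT and 22, 26, 26 and 23 in KO. Raw tags of the genotypes overlapped at Hoxa5 and at the Hoxa7 5′ end. The Hoxa11 region (chr6:52246387-52246806), which held 13 to 23 tags in WT and 14 to 18 in KO, had the lowest mean percentile of strength of the 7 (20.1).

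The other HoxD regions found in all libraries had 9 to 39 tags. That between Hoxd13 and Hoxd12 (chr2:74672769-74673319) held 15 to 20 tags in WT and 14 to 23 in KO, that at Hoxd9 (chr2:74697624-74698147) 19 to 30 and 13 to 20, and that in introns of Hoxd3 and Hoxd4 (chr2:74715791-74716138), at the start of the antisense RNA Hoxd3os1, 13 to 24 and 10 to 22. The fifth, upstream of Hoxd10, is described with the genotypes.

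In HoxB the one region found in most libraries lay between Hoxb5 and Hoxb4 (chr11:96311483-96311881), 6.56 kb upstream of Hoxb4 and outside any annotated gene. It held 19, 22, 24 and 20 tags in WT and 17, 30 and 16 in KO 1_2, 1_3 and 2, and KO 3 had no peak there. The region between Hoxb9 and Hoxb8 (chr11:96278793-96279097) was found in WT 1_3 and WT 3 only, with 18 and 15 tags, and the regions in the coding and 3′ parts of Hoxb8 were found in 1 library each (10 tags in KO 1_3 and 15 in WT 1_3). In HoxC, 2 regions were found in 7 libraries, both near Hoxc10. At the Hoxc10 promoter (chr15:102966452-102966787) the summit held 25, 17 and 17 tags in WT 1_3, 3 and 4 and 18, 17, 8 and 10 in KO, and the region 2.86 kb upstream (chr15:102963491-102964110) held 10 to 19. Of the other 6 HoxC regions, 4 were found in 2 to 4 libraries and 2 in 1. By mean percentile over the libraries that held them, which differ between regions, the highest of the cluster were a region in introns of Hoxc5 and Hoxc6 (chr15:103003093-103003338), found in WT 1_3 only with 19 tags (fewer than the 25 at the Hoxc10 promoter in that library), and one in a Hoxc5 intron (chr15:102987441-102987780), found in WT 1_3 and WT 3 with 18 and 16 tags.

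**Figure D4:**
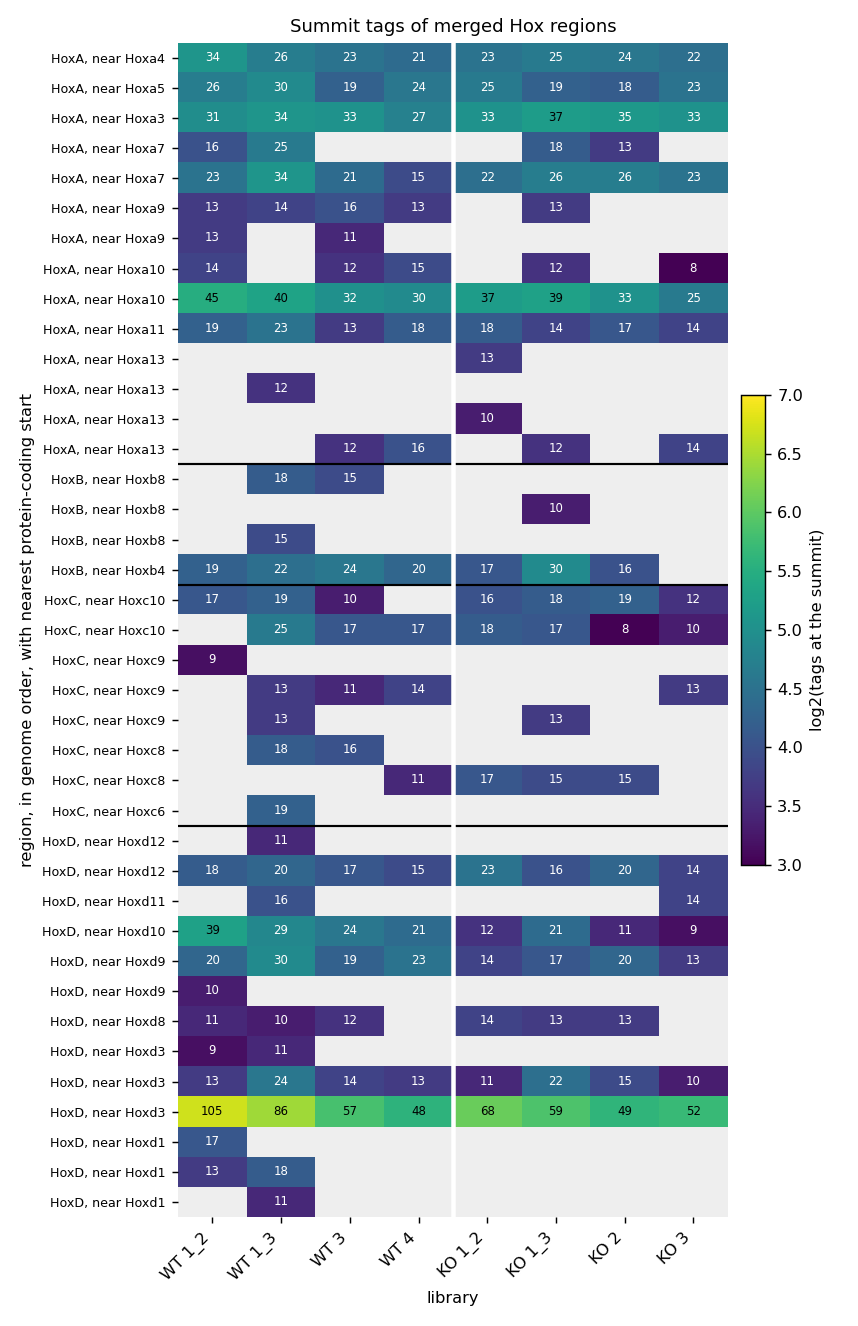
Tags at the summit of 39 of the 40 merged Hox regions (rows, in genome order, named by the nearest protein-coding start) in the 8 libraries (columns). The number in each cell is the tag count, the colour its log2, and pale cells have no peak. The row of 48 to 105 tags is the Haglr exon region, and most other rows hold under 40 tags.

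Long stretches had no peak in any library. The longest ran over 342 kb from the region upstream of Hoxb4 to beyond the cluster (chr11:96311882-96653901) and held the 5′ ends of Hoxb4, Hoxb3, Hoxb2 and Hoxb1. It was longer than 98.7% of the distances between neighbouring regions of the genome, whose median was 6.66 kb. A second HoxB stretch of 133 kb (chr11:96145926-96278792) held those of Hoxb13 and Hoxb9. In HoxC a stretch of 195 kb (chr15:102768122-102963490) held the 5′ ends of Hoxc13, Hoxc12 and Hoxc11, and one of 56.3 kb (chr15:103003339-103059592) that of Hoxc4, with further TSSs of Hoxc5 and Hoxc6. In HoxA the longest stretch inside the cluster covered the 33.3 kb before the Hoxa4 promoter region, with the 5′ ends of Hoxa2 and, at its edge, Hoxa4 inside it, and in HoxD one of 33.1 kb (chr2:74716139-74749208) ran from the Hoxd3os1 start to the Haglr exon and held no gene 5′ end but further annotated TSSs of Hoxd3 and Hoxd4. The longest stretch that touched the HoxD window, 62.1 kb beyond Hoxd1 (chr2:74763377-74825491), held no Hox start. The stretches of 342, 133, 195, 56.3 and 62.1 kb ran past their windows. Within the windows the longest were 94.5 kb in HoxB, 52.4 kb in HoxC, 33.3 kb in HoxA and 33.1 kb in HoxD. Absence of a peak means that no window passed the caller's q threshold of 0.05 at these depths, and the tags in these stretches are not in the lists.

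None of the 6 DR5 elements lay under a peak. The nearest merged region was 7.65 kb from the element in the Hoxd3 intron. It was 16.2 kb from the element in the Hoxa3 intron and 29.4, 60.9 and 66.7 kb from the elements in the Hoxb3 intron, beyond Hoxb1 and between Hoxb13 and Hoxb9. The same held for 2 DR2 and 4 DR1 elements, the forms with 2 bases and 1 base between the half-sites, although the DR2 in Hoxa10 lay 0.282 kb from a region. Over the genome, 0.127% of the 72711 regions found in at least 2 libraries had a DR5 within 100 bp of the summit, 0.157% a DR2 and 0.237% a DR1, so matches to these strict elements were rare in open regions in general.

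Of the 29 Hox regions found in at least 2 libraries, 6 had a CTCF match within 100 bp of the summit (20.7%), beside 10.1% of the 72711. Among those in all 8 libraries it was 3 of 12 (25.0%), beside 7.25%. These 3 were the Hoxa10, Hoxa7 5′ end and Hoxd13 to Hoxd12 regions, with the match 12, 5 and 43 bp from the summit, and the match at Hoxa5 lay 276 bp from its summit. The windows held 42 CTCF matches in all, of which 7 lay under a peak and 4 under a region found in all 8 libraries. HoxB held 20 of the 42, including the 1 with no mismatch, and 1 of its 20 lay under a peak. The E-box was found in 6 of 29 (20.7%), beside 5.35%, and the GC box in 11 of 29 (37.9%), beside 17.7%. Both shares depend on the part of promoters in the set. Among promoter regions found in all 8 libraries, the GC box was in 2 of 6 Hox regions (33.3%), beside 58.9%, and the E-box in 3 of 6 (50.0%), beside 7.74%. Outside promoters the GC box was in 3 of 6 (50.0%), beside 8.86%, and the E-box in 0 of 6, beside 5.10%. AP-1 (TGANTCA) matched 1 of 29 (3.45%), beside 11.9%, PU.1 matched 2 (6.90%, beside 10.7%), CEBP matched 4 (13.8%, beside 14.7%), and RUNX (TGTGGTT) and PBX-HOX (TGATTNAT) matched none, beside 8.98% and 1.97%. All motifs were searched on both strands, a match is only a run of letters, and these shares carry no test.

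The libraries were then compared by genotype. WT libraries had 24, 30, 23 and 19 peaks in the 4 windows and KO libraries had 19, 23, 18 and 18. The means were 24 ± 4.55 (SD, n = 4) and 19.5 ± 2.38 (SD, n = 4), a difference of −4.50 (exact permutation test, two-sided, p = 0.143). The groups overlapped, and 70 labelings of 4 and 4 libraries allow no p below 0.0286. Peaks covered 7060 ± 1710 bp in WT and 5803 ± 706 bp in KO (SD, n = 4 each), a difference of −1258 bp (exact permutation test, p = 0.257), and a promoter peak was found at 12, 13, 9 and 8 Hox genes in WT and 8, 10, 9 and 7 in KO, a difference of −2 genes (exact permutation test, p = 0.286). When each list was cut to the length of the shortest, these differences were −1 peaks, −329 bp and −0.25 genes (exact permutation tests, p = 0.629, 0.686 and 1). Without WT 1_3 they were −2.5 peaks, −472 bp and −1.17 genes.

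No Hox region was specific to a genotype, that is, listed 4 times in one and never in the other. Over the genome such regions made up 0.820% (WT only) and 0.285% (KO only) of the 72711, or 1.10% together. The nearest to it was the Hoxa9 promoter region (chr6:52226006-52226331), with 13, 14, 16 and 13 tags in the 4 WT libraries and 13 in KO 1_3, and no peak in the other 3 KO libraries. A second region at Hoxa9 was found in 2 WT libraries, and the mean percentile of strength of the first was 5.57. Of the 40 Hox regions, 17 were found in more WT than KO libraries, 6 in more KO than WT and 17 in equal numbers (42.5%, 15.0% and 42.5%). Over the genome these shares were 23.6%, 12.4% and 64.0%.

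Tags at the summit were compared between genotypes with limma, fitted over the 47499 regions found in all 8 libraries, with each library centred on its median and Benjamini-Hochberg adjustment over all of them. Of the 12 Hox regions, 1 passed an adjusted p of 0.05 and was lower in KO, beside 12.8% of all regions (7.03% lower and 5.81% higher). That split depends on the scaling: 2760 regions were higher and 3337 lower after median centring, but 575 and 1988 after scaling on background depth and 537 and 2745 on strength percentiles. The Hox region passed under each of them. The region lay 1.71 kb upstream of Hoxd10 (chr2:74690035-74690442), a gene of the hindlimb and lumbar spinal cord, in an intron of the noncoding gene Gm28309. Its summit held 39, 29, 24 and 21 tags in WT and 12, 21, 11 and 9 in KO. KO 1_2, KO 2 and KO 3 were low, while KO 1_3 had as many tags as WT 4, and after centring KO 1_3 (−1.65) lay just below WT 1_3 (−1.63), so the groups did not overlap. The log2 fold change on the log2(tags + 0.5) scale was −0.88 ± 0.22 (SE), with an adjusted p of 0.00478 by limma, and without WT 1_2 it was −0.70 with an adjusted p of 0.0485. No DR1, DR2 or DR5 match was found within 100 bp of this summit, and the Hoxd10 promoter itself had no peak.

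The other 11 regions did not pass. Over the 10 of them described here, log2 fold changes ran from −0.29 ± 0.21 (SE) at Hoxd9, with an adjusted p of 0.389 by limma, to 0.36 ± 0.17 between Hoxa6 and Hoxa7, with an adjusted p of 0.179. The centred values of the latter did not overlap between the genotypes. Groups did not overlap in 2 of 12 Hox regions, beside 16.2% of all regions, and an unadjusted p under 0.05 was found for 3 of 12, beside 26.2%. The Haglr exon region differed by −0.10 ± 0.15 and the Hoxa10 region by 0.08 ± 0.18 (SE, n = 4 each), both within the spread of the libraries. The median of the 12 fold changes was 0.04, as was that of all 47499.

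**Figure D5:**
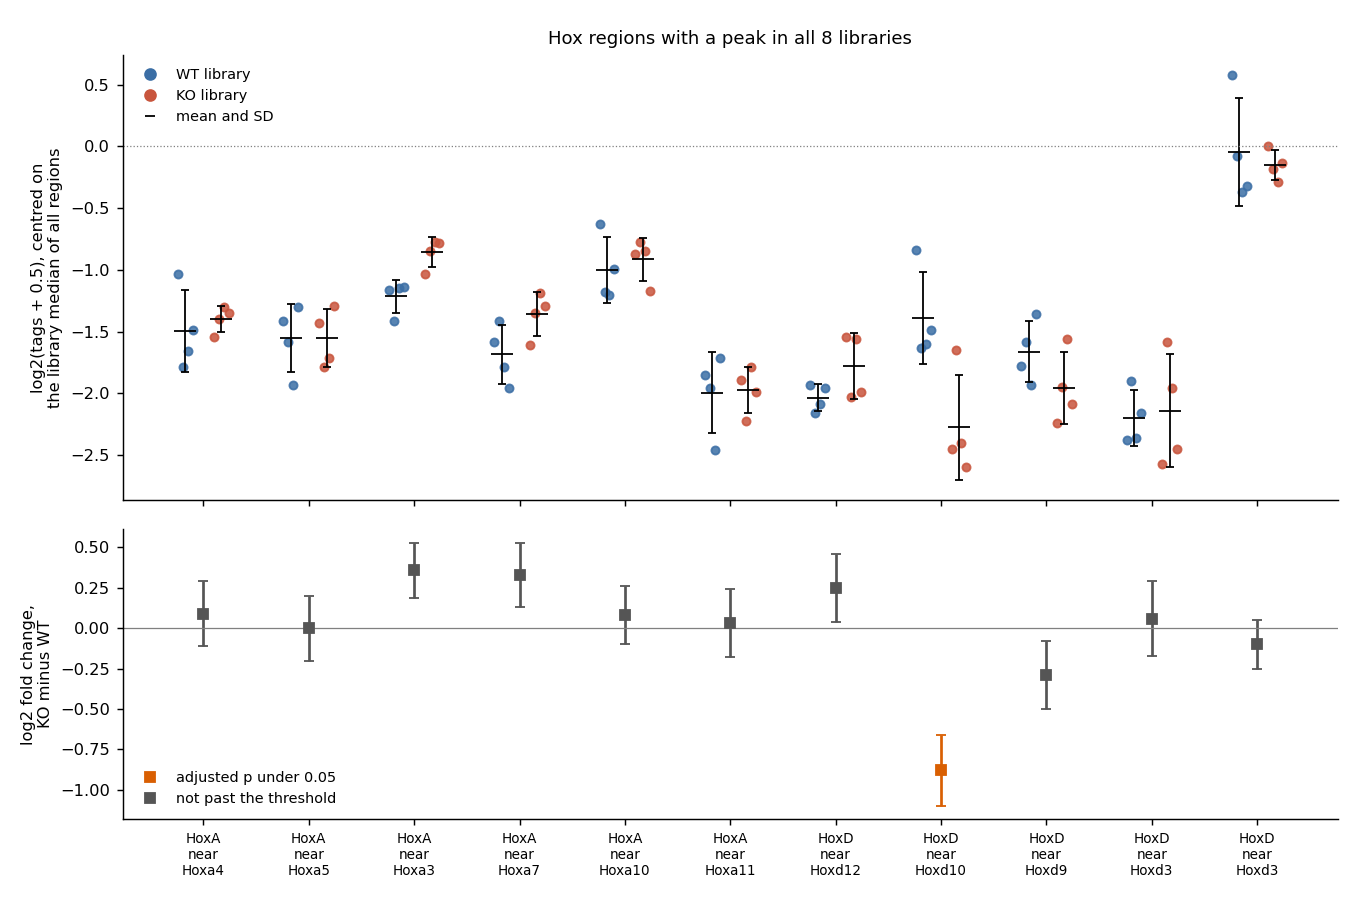
Of the 12 Hox regions found in all 8 libraries, 11 are plotted. The upper panel shows log2(tags + 0.5) of each library (blue WT, red KO) relative to the library's median over 47499 regions, with mean and SD, and the lower panel the log2 fold change with its SE. The region near Hoxd10 (orange, −0.88) is the one past the threshold, and only the Haglr exon region (at the right, near Hoxd3) reaches the dotted line at the genome median.

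Genes that act on Hox clusters or with their products are set here beside the shares of 53.7% of all genes and 83.6% of CpG-rich genes with a promoter peak in all 8 libraries. Among the TALE cofactors, which bind DNA together with Hox proteins, 8 of 9 had a promoter peak in all 8 libraries, and Pknox2 had one in 6. Pbx3 was higher in KO (log2 fold change 0.31 ± 0.10, adjusted p = 0.0306 by limma), and no other promoter region of the list passed (12.8% of all regions passed in either direction). Promoter peaks in all libraries were found for 25 of 27 genes of the Polycomb complexes, which silence Hox genes, with Pcgf2 in 1 library and Cbx6 in none. Rbbp4 (0.26, adjusted p = 0.0376) and Cbx8 (0.26, adjusted p = 0.0463) were higher in KO by limma. No other Polycomb promoter region of the 30 fitted was called, beside 5.81% higher and 7.03% lower over all regions. Of the Trithorax and MLL genes, which keep Hox genes active, 10 of 11 had one, with Kdm6a, an H3K27 demethylase, higher (0.52, adjusted p = 1.43e-05) and Ash2l lower (−0.46, adjusted p = 0.0293) in KO by limma. All 8 CTCF and cohesin genes had a promoter peak in all libraries, and Rad21 was higher (0.31, adjusted p = 0.0194 by limma). The fitted promoter regions numbered 11 for the Trithorax and MLL list and 8 for the CTCF and cohesin list. Of 12 retinoid signalling genes, 4 had a promoter peak in all libraries (Rara, Rarb, Rarg and Aldh1a2) and 6 in none, among them Cyp26a1, a classical retinoic acid target gene, and 1 of 8 promoter regions, at Rarg, was higher in KO (0.47, adjusted p = 0.0116 by limma). Rbbp4, Ash2l and Rarg each had 2 fitted promoter regions, of which 1 was called. The calls of these lists were made after median centring, and those under other scalings are not given. Over the genome, 2760 regions were higher in KO with that centring and 575 with scaling on background depth. The fit held no term for sex, and the part of sex in these differences, that at Kdm6a included, was not tested.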

How the data were processed

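ATAC-seq peak lists of 8 libraries, 4 per genotype, were used as deposited. Per the study's methods, the authors used cutadapt for trimming and Bowtie2 for alignment to mm10, dropped duplicates, and called peaks per library with MACS3 on 200-bp windows centred on the cut sites. The deposited columns used were the fold (a ratio of summit tags to background), the −log10 p and −log10 q values and the summit. Libraries were not normalised to each other. Whole tags at the summit were recovered from the fold and p of each peak, for 100% of peaks within a relative error of 1e-05, together with the background (1.12 to 2.26 tags per 200 bp), which stands in for depth.

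Peaks were merged where they shared a base. Regions in all 8 libraries (47499) were compared with limma 3.58.1 (R 4.3.3) on log2(tags + 0.5), centred on library medians, with a trended prior and Benjamini-Hochberg adjustment, after tests on simulated data. Requiring a peak in every library leaves out sites lost in one genotype, which were counted by presence instead. Counts per library were compared by exact permutation. Strength percentiles rank −log10 p within a list. TSSs came from the GENCODE M21 basic set, so a gene's 5′ end and its nearest TSS can differ, and overlapping genes, antisense or not, can share peaks. CTCF was searched with up to 1 mismatch, other motifs with none.

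Hox members and gene lists were chosen with earlier results of these data known. All Hox genes were counted, although 1 of them and the sites around it are not reported here, and the regions named are the 3 strongest of each window, every called or genotype-specific region and the longest closed stretches, together with all regions found in every library. The Hoxa9 region was singled out after its values were seen. P-values measure only the spread between these libraries. The replicate numbers shared by both genotypes (1_2, 1_3 and 3) are not stated to mark a litter or day and were not used as a block. Alternatives were list length, a −log10 q of at least 5, window and promoter size, other scalings, a pseudocount of 5, the block, merging of 1_2 with 1_3, and leaving out each library.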

Additional observations from a re-analysis of the deposited data

Results flagged for a closer look

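Of 46 groups of 4 libraries checked for a value that stands far from the other 3, 2 were picked out. Chance picks out about 1 in 20 of independent groups of continuous values, while these groups overlap and include small counts. KO 1_3 had 4 peaks in the HoxC window where the other 3 KO libraries had 3 each. With the other 3 tied, any difference is picked out, so this flag carries no weight. In the region between Hoxa6 and Hoxa7, WT 1_3 held the most raw tags of the WT libraries (34) but, once each library was centred on its median, lay lowest at −1.41, with the other 3 WT libraries between −1.16 and −1.14.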

How the results depend on the processing

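The Hoxd10 region was called, and was the only Hox region called, under the main setting and all 16 alternatives, (strength percentiles included, with a difference of −29.8 percentile points), with adjusted p-values from 8.93e-04 to 0.0485 by limma. No region was specific to a genotype, except that 1, at the Hoxa9 promoter, was WT-specific when 1 library was allowed to depart and when KO replicate 1_3 was left out. The genome shares under these settings are not given, so this count has no background beside it. Leaving out 1 library at a time gave differences of −6.17 to −2.5 peaks, −1804 to −472 bp and −2.83 to −1.17 promoters (range of the genotype-specific count 0 to 1, of called regions 1). The Haglr exon region (log2 fold change −0.210 to 0.110) turned positive without WT 1_2, and the Hoxa4 region (−0.0100 to 0.250) negative without WT 1_3, neither called. With scaling on background depth the 12 Hox regions split 6 higher to 6 lower, and with strength percentiles 3 to 9, against 8 to 4 after median centring. The deposited fold gave 640 regions higher and 1038 lower over the genome. With the replicate block, 1 Hox region was called (adjusted p = 0.00972) and the difference in peaks was −5.67. Deviations of same-numbered libraries correlated at 0.0555, 0.116 and 0.0368, of which 1 passed 0.1, so the numbers were not treated as pairs. The block gave 3595 regions higher and 3280 lower over the genome, and every library with a shared number correlated best with its own number, a hint of shared deviations from the data, not from the design. With gene 5′ ends alone, an alternative chosen after seeing the data, 7 Hox genes instead of 6 had a promoter peak in all 8 libraries. Regions near the detection limit, such as single-library ones, are the least certain.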

Other observations

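None of the 7 miRNA genes that start in the windows, among them Mir10a, Mir10b, Mir196a-1, Mir196a-2, Mir196b and Mir615, had a summit within 1 kb of its start in any library. The nearest summit lay 3071 bp from Mir196b, 3602 bp from Mir196a-2, 5462 bp from Mir10a and 10124 bp from Mir10b. Of 41 other noncoding genes, 9 had such a summit in all 8 libraries, 6 in some and 26 in none. The shares over all miRNA and other noncoding genes of the genome are not given. These counts therefore cannot be read as a trait of the Hox clusters. Hoxa11os and Hoxd3os1 were among those with one in all 8 libraries. Hotair, the HoxC RNA known for acting with Polycomb, had none, with the nearest summit 16205 bp away, and Hottip, beside Hoxa13, had one in KO 1_2 only. Many of the 41 are annotated as short RNAs inside the same few promoters and share their peaks.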
